A study of Drosophila melanogaster with 21 samples.

Results

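The 100 genes described here had the highest RNA immunoprecipitation (RIP) signal relative to their RNA level among ranked genes of Drosophila melanogaster embryos. They were chosen by a measured value, from 2140 genes that could be ranked. RIP signal was given for 2168 genes, against 17869 FlyBase genes listed for total RNA, so most genes could not be ranked. That value was the mean log2(signal + 1) over 6 Top3b-eGFP RIP samples minus the mean log2(CPM + 1) over 3 wild-type total RNA samples, where CPM is counts scaled to a common library size. Genes needed a mean of at least 10 in both tables, and Top3beta, the bait, was left out. Both levels therefore describe the choice, and neither they nor a contrast built on them was used as evidence. Because each table had its own normalization, the difference orders genes and its absolute size is not a fold enrichment. CPM was not scaled by gene length, and whether the RIP signal was is not stated, so the order may depend on length.

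Total RNA came from embryos of 4 genotypes with 3 replicates each: wild-type, Top3b26 (a Top3b allele), Y332F (labelled Top3bY332F, in which phenylalanine replaces a tyrosine) and delRGG (Top3b without its RGG part). RIP used embryos with eGFP-tagged protein, in 6 samples of Top3b-eGFP and 3 samples of the Y332F form, Top3b-Y332F-eGFP. All samples were whole embryos, the labels do not say whether replicates were separate collections, and p-values then measure the spread between these samples. Neither a mock pull-down nor a matched input of the tagged embryos was analysed here.

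Topoisomerase 3 beta is a type IA topoisomerase that passes a nucleic acid strand through a break in another, and unlike most topoisomerases it acts on RNA as well as DNA. Its catalytic tyrosine forms the transient covalent bond with the strand. RGG repeats are a common RNA-binding element, and in animals the enzyme works with the Tudor-domain protein Tdrd3 and has been tied to mRNA translation and to neuronal function. RIP isolates a tagged protein with its RNA, so its signal for a gene rises with how much of that RNA is present and with how much of it comes down with the protein.

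Total counts per total RNA sample ran from 22400118 to 31125584. Within a RIP group, Pearson's r of log2 signal across genes lay between 0.916 and 0.983, and the scaling factors applied to RIP samples ran from 0.6001 to 1.67. No library was a near copy of another, with a chi-square per degree of freedom of 11.5 to 115 between replicates of a genotype. Top3beta checked the labels: the wild-type samples stood at 125, 122 and 94.5 CPM, those of Top3b26 at 23.3, 21.2 and 21.8 CPM, and those of Y332F and delRGG at 103 to 141 CPM. The summed CPM of 4 late embryo cuticle and muscle markers was 1133 to 4071 in wild type, 63.9 to 185 in Top3b26, 163 to 306 in Y332F and 150 to 1959 in delRGG. That of 4 neuronal markers was 142 to 291, 15.5 to 48.5, 38.3 to 58.7 and 45.1 to 167 in the same order, with none of the 4 at 0 in any genotype. Of the late markers, Cpr47Ef was at 0 counts in Top3b26 and Cpr64Ac in Y332F. A set of 8 patterning genes summed to 197 to 282 CPM, and 7 adult markers to 0.19 to 34.2 CPM, with Acp26Aa at 0 in every sample. Fewer cells of a type, less RNA per cell and a difference in embryo stage cannot be told apart in such samples.

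The members were mostly RNAs of low abundance with an ordinary RIP signal. Their wild-type level had a median of 14.97 CPM, against 114 CPM for the other 2040 ranked genes, and 77 of the 100 were under 50 CPM against 23.97% of the others. Their median RIP signal of 580 was close to the 516 of the others, and only 12 members were among the 100 genes highest in RIP signal alone. The value used for the choice ran from 4.15 to 9.61 with a median of 4.66, against a median of 2.30 for the others. At the edge, RpL23A, DCTN3-p24, CG2006, PCNA and por held ranks 96 to 100 with 4.22, 4.18, 4.17, 4.16 and 4.15. The first genes outside, yki, cib, CG12948, FucTA and ND-B17, had 4.14, 4.14, 4.14, 4.13 and 4.11, so the edge falls within a continuous slope and not at a gap.

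**Figure D1:**
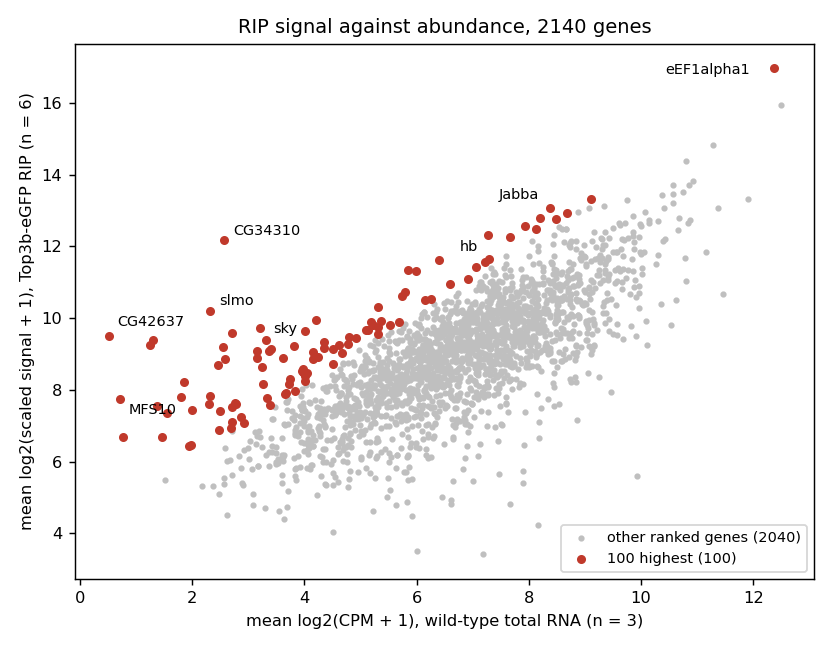
Mean log2(scaled RIP signal + 1) in 6 Top3b-eGFP samples against mean log2(CPM + 1) in 3 wild-type samples for 2140 genes, with the 100 members in red. The members form the upper edge of the cloud, and 77 of them lie under 50 CPM.

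The 15 highest genes were all low in the total RNA table, and a low wild-type level is what the ranking favours. Their RIP signal ran from 161 to 5200 over all genes and samples, while 14 of the 15 were under 10 CPM in each wild-type sample. CG34310, a gene without a given name, led the list. Its RIP signal had a lowest value of 4083, a median of 4728 and a highest of 5200 over the 6 Top3b-eGFP samples, while its total RNA level was 4.34, 4.93 and 5.61 CPM in wild type. Its value was 9.61, with single-sample values of 9.43 to 9.77.

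CG42637 followed at 8.98, with RIP signals of 581 (lowest), 725 (median) and 836 (highest) and wild-type levels of 0.51, 0.42 and 0.35 CPM. bbx, an HMG-box protein gene, had a value of 8.09, with RIP signals of 462, 677 and 885 against 1.48, 1.02 and 1.99 CPM. Gss1, which encodes a glutathione synthetase, had 8.01, with RIP signals of 545, 589 and 726 against 1.14, 1.23 and 1.79 CPM. These 3 genes were near or under 2 CPM in every wild-type sample, and no RIP sample of any of them fell under 462. slmo, which encodes a mitochondrial protein, had 7.89, with RIP signals of 1021, 1134 and 1455 against 4.26, 4.25 and 3.50 CPM.

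MFS10 (a transporter of the major facilitator family, 7.03), CG15717 (6.87), CG42354 (6.66) and eIF5 (6.50) came next. eIF5, a translation initiation factor that acts on the GTPase eIF2, had RIP signals of 533, 882 and 1017 and 9.91, 7.01 and 8.10 CPM in wild type. Its lowest RIP sample lay apart from the other 5, which ran from 838.5 to 1017. Irk1, a potassium channel, had 6.36, followed by CG15093 with 6.28, CG14131 with 6.23, hng3 with 6.16, sky with 6.08 and CG18508 with 5.99. sky, skywalker, encodes a GTPase-activating protein for a Rab GTPase at synapses, and had RIP signals of 516, 653 and 895 against 7.76, 8.07 and 11.2 CPM. Each of the 15 stayed among the 100 highest genes when any single RIP sample was set against the wild-type mean. The same samples made the choice, so this is a description and no test.

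**Figure D2:**
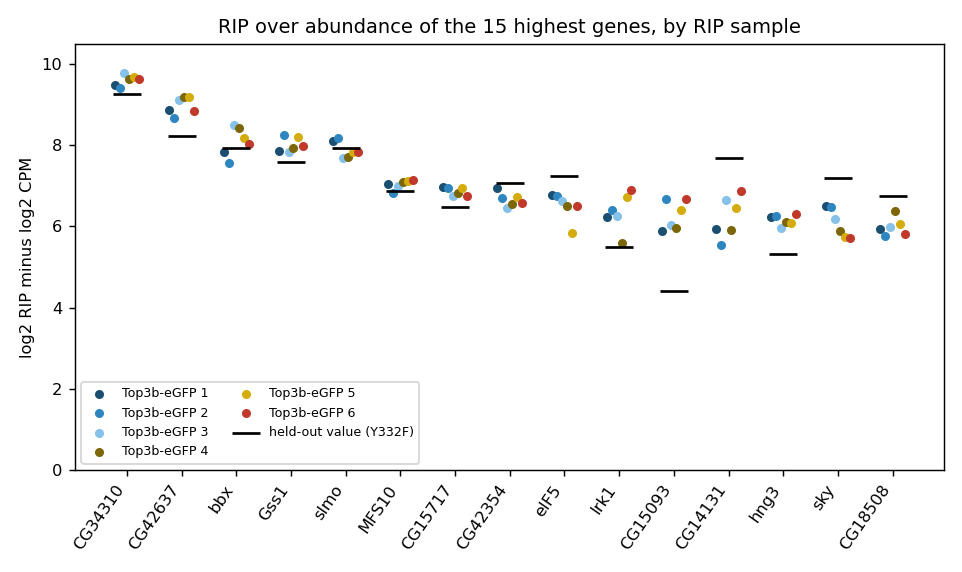
RIP over abundance (log2 RIP signal minus mean log2 CPM) of the 15 highest genes for each of 6 Top3b-eGFP samples (points), with the value from Y332F RIP and Y332F total RNA as a black bar. No sample falls under 5.55, and CG34310 lies between 9.43 and 9.77.

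Across the whole list, 59 members were among the 100 highest genes in all 6 RIP samples taken singly and 75 in at least 5 of them. A single sample shared between 82 and 89 of its 100 highest genes with the list. As these samples and the same wild-type mean made the choice, such overlap is partly built in. The spread over the RIP samples differed between members. Jabba, which holds histones on lipid droplets, was among the steadiest, with an SD of 0.11 on the log2 scale and RIP signals of 7666 to 9055. CG15717, also with an SD of 0.11, and CG11807, with 0.12, had signals of 698 to 823 and 510 to 640.

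UQCR-6.4, a subunit of respiratory complex III, varied most, with an SD of 0.88 and signals of 282 (lowest), 409 (median) and 1474 (highest). CR31292, annotated as a pseudogene and the only member not annotated as protein coding, had an SD of 0.87 and ran from 44.7 to 258. Sbat had an SD of 0.86 and ran from 50.4 to 262. The highest sample of UQCR-6.4 and of Sbat was Top3b-eGFP replicate 6, and that of CR31292 was replicate 2. Over all members the median SD was 0.29, against 0.28 for the other ranked genes.

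The same measure could be taken in samples that had no part in the choice, with Y332F RIP set against Y332F total RNA. Of the 100 members, 70 were among the 100 highest genes there, where the highest 100 made up 4.67% of the ranked genes, and 85 were among the highest 200. The members' held-out value had a median of 4.79, against 2.17 for the others. All of the 15 highest genes were among the held-out 100 highest, and 12 of them among the held-out 15 highest. With Top3b26 or delRGG total RNA as the abundance, the count was 66 or 71. Gene models and counting were common to both measures, and the RIP samples came through a single table, so the held-out samples are independent as samples and not as processing.

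The 5 members highest in the held-out value were CG34310 (9.26), CG42637 (8.23), bbx (7.94), slmo (7.93) and CG14131 (7.69). phr6-4, which encodes a photolyase that repairs ultraviolet damage in DNA, was the single member outside the upper 50% of the held-out order, at rank 1101. Its total RNA level was 8.90, 8.11 and 6.97 CPM in wild type, 81.9, 89.2 and 82.9 in Top3b26, 86.9, 91.5 and 76.7 in Y332F, and 81.9, 88.6 and 108 in delRGG. The wild-type samples were far under all 9 mutant samples, which were alike. Its RIP signal was 403 to 617 in Top3b-eGFP and 351 to 446 in Y332F, and the groups overlapped.

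After phr6-4, the lowest held-out values were those of mldr (3.20), CG2006 (3.24), the annexin AnxB10 (3.34) and CG2211 (3.35), all of which still lay above the median of the other genes. In the other direction, 30 genes of the held-out highest 100 were no members, 12 of them from the 100 ranks just after the list. Galphaq, a G protein subunit, RpL13 and CG15715 led these, with held-out values of 5.16, 4.95 and 4.94 against 3.47, 3.88 and 3.45 in the value used for the choice.

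**Figure D3:**
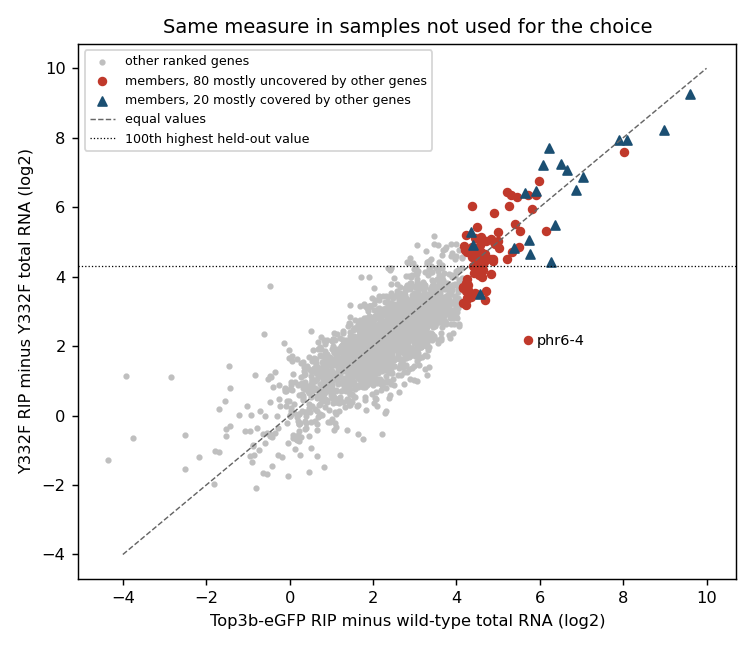
Y332F RIP minus Y332F total RNA against Top3b-eGFP RIP minus wild-type total RNA (log2) for 2140 genes, with members as red points or, where other genes cover over 50% of their span, blue triangles. Above the dotted line at 4.32 lie 70 members, and phr6-4 lies alone at 2.19.

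The members at the head of the list shared a trait of position. In the RefSeq annotation, over 50% of the span was covered by other genes for 20 of 100 members, against 6.84% of the others, and for 12 of the 15 highest. By rank, 16 of the first 25 genes were so covered, then 1, 2 and 1 in the following sets of 25.

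More narrowly, 12 members shared at least 90% of their span with another coding gene that shared at least 90% of its own with them, against 0.29% of the others. They were CG34310, bbx, slmo, MFS10, CG15717, CG42354, eIF5, sky, CG17724, MEP-1, rg and CG33096. CG34310 shared its whole span with cup, a translational repressor that binds eIF4E, and cup was listed at 0 counts in all 12 total RNA samples. The partners of bbx (waw), slmo (CG34179), CG42354 (CG42353), eIF5 (CG46312) and sky (CG43739) were likewise listed at 0 in all 12. So were seq, CG42245, CG15465 and CG33095, the partners of CG17724, MEP-1, rg and CG33096. MFS10 and CG15717 were each other's partner, at 0.64 and 5.56 CPM in wild type, and both were members.

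Zeros of this kind went with such pairs throughout the table. Of 387 coding genes with a near-coextensive coding partner, 82.2% had no count in any of the 12 samples, against 9.34% of all 13883 coding genes. featureCounts, the counting tool named in the submitters' processing notes, by default leaves out reads that fall in exons of more than 1 gene. The setting used is not given in the sources used here, so the total RNA levels of these members are uncertain. Of the partners listed at 0, only CG33095 had a RIP signal given, and cup and the rest had none, like most genes. How reads of shared sequence were assigned in the RIP signal is not stated either. The part of shared reads in the rank of these members was not tested. The 18 near-coextensive genes among those ranked had a median value of 5.75, against 2.36 for the ranked genes without such a partner.

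Other overlaps were partial or nested. CG14131 lay wholly within Pi3K68D, a phosphoinositide 3-kinase gene at 123 CPM in wild type. CG15093 lay within the antisense gene CR43964, at 0.11 CPM, and Irk1 shared 67.9% of its span with CG46310, listed at 0. Trl, which encodes the GAGA factor, shared 76.5% with CG42507, also listed at 0. Gss1 and CG18508 overlapped no other gene, and hng3 was covered over 23.4% of its span. Their wild-type levels were 1.14 to 1.79, 1.79 to 3.00 and 1.22 to 2.08 CPM. A low wild-type level is what the ranking favours, so nothing is read from these levels.

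The 80 members that were mostly uncovered had a median value of 4.59 and a median held-out value of 4.67, and 51 of them were among the held-out highest 100. The 20 covered members had medians of 6.25 and 6.48, and 19 were among the held-out highest 100. The uncovered members were also short genes, with a median span of 2.10 kb against 10.7 kb for the covered. Over the whole list the median span was 2.40 kb, against 5.19 kb for the others, and 32% of members were under 1.5 kb against 9.45%. The head of the list went the other way, with a median span of 6.79 kb over ranks 1 to 25 and 9.06 kb over the 15 highest. Among the members alone, Spearman's rho between span and the value was 0.28. Across the 1972 genes not mostly covered, Spearman's rho between span and the value was -0.42, and -0.58 for the held-out value. This describes genes that share libraries and carries no p-value. Whether the RIP signal was scaled by length is not stated, and the part of such scaling in the span values was not tested.

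**Figure D4:**
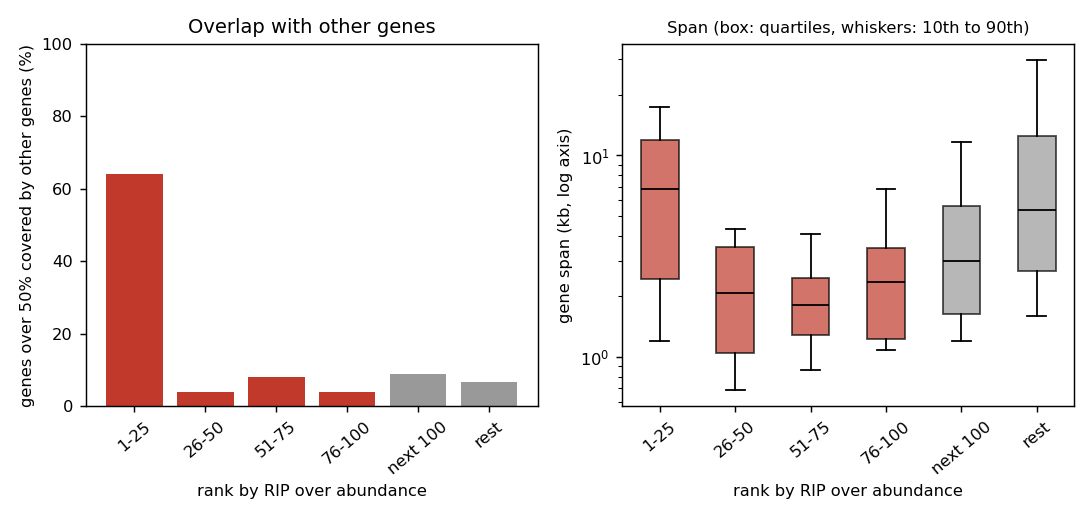
Share of genes with over 50% of their span covered by other genes (left, bars) and gene span in kb on a log axis (right, boxes of quartiles, whiskers from the 10th to the 90th percentile) by rank, members in red. The first 25 ranks hold 64% covered genes with a median span of 6.79 kb, and ranks 26 to 100 have medians of 1.81 to 2.37 kb.

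Members were counted in lists of known functions, beside their share of all ranked genes. None of 18 ranked genes of axon guidance and neuronal adhesion was a member, nor any of 8 genes of synapse and excitability, 23 of the cytoskeleton, 37 of developmental signalling or 23 of ubiquitin ligases and proteases. The median values of these lists were 1.11, 1.33, 1.62, 1.46 and 1.76, against 2.37 over all ranked genes. Members made up 4.67% of ranked genes, and lists of this size were described and not tested. There was 1 member among 39 chromatin regulators, 1 among 36 transcription factors, 2 among 21 membrane traffic genes and none among 3 proteasome subunits.

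Most listed members belonged to protein synthesis and to mitochondria. There were 3 members among 30 cytosolic ribosomal protein genes, 2 among 10 mitochondrial ones, 3 among 21 translation factors and 4 among 29 respiratory chain subunits. Median values of these lists were 2.81, 3.13, 3.04 and 2.64. In the held-out order, 7 of the 30 cytosolic ribosomal protein genes were among the highest 100. RpS21, of the small ribosomal subunit, had RIP signals of 1955, 3126 and 5480 in Top3b-eGFP, and its level was 144, 143 and 182 CPM in wild type against 54.3 to 92.3 CPM in the 9 mutant samples. RpS19a had signals of 4624 to 12612 and RpL23A of 7455 to 15673. RpS19a has a close paralog, so its reads are uncertain.

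eEF1alpha1, the factor that brings aminoacyl-tRNA to the ribosome, was the most abundant member at 4940, 5285 and 5686 CPM in wild type. Its RIP signal was 74340 (lowest), 129198 (median) and 196098 (highest), a wide spread. eIF2A, an initiation factor, had 3485, 6598 and 8569. Among mitochondrial ribosomal proteins, mRpS6 had 140 to 259 and mRpL16 had 220 to 513. The respiratory members were UQCR-6.4, UQCR-Q (457 to 909), ND-AGGG of complex I (484 to 854) and ATPsynC of the ATP synthase (3839 to 8461).

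Some lists peaked in particular RIP samples. Top3b-Y332F-eGFP replicate 3 was the highest of its 3 samples for 30 of 30 cytosolic ribosomal protein genes, against 47.2% of all ranked genes. Top3b-eGFP replicate 6 was the highest of its 6 for 20 of 30, and for 18 of 29 respiratory genes, against 14.3% of all ranked genes. Mitochondrial ribosomal protein genes had 9 of 10 and 3 of 10 in these samples, and translation factors 12 of 21 and 5 of 21. Lists with no or few members also peaked in the first of them, with 14 of 18 axon guidance genes and 24 of 39 chromatin regulators, and in the second with 0 of 18 and 0 of 39. Both are the samples whose data column was matched by a bare number in the label. Without Top3b-eGFP replicate 6, 97 of the members remained among the 100 highest, and without Top3b-Y332F-eGFP replicate 3 the held-out count remained 70.

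Single members came from other lists. Trl, of the chromatin list, ranked 16 with a value of 5.92 and RIP signals of 432, 536 and 615. hb, the gap gene transcription factor hunchback, ranked 84 with 4.35. Its RIP signal was 2625 to 3389 in Top3b-eGFP and 1597 to 2384 in Y332F, with total RNA at 149, 159 and 138 CPM in wild type. Pop2, a deadenylase subunit of the CCR4-NOT complex, ranked 37 with 4.92 and was the only member among 47 RNA-binding and translational regulators. rg, rugose, a large anchoring protein for protein kinase A, and Sec24CD, of the COPII coat, were the members of the membrane traffic list.

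The RIP signal was measured as 2 transcripts for 86 of 100 members, against 77.1% of the others, as 3 for 13 and as 4 for 1. Over all 2140 ranked genes, RIP signal was given for 2 transcripts in 1659, for 3 in 386 and for 4 in 85. RefSeq lists more transcripts for some members, such as 12 for sky and 10 for Trl, which had 2 and 3 here. Whether the summed signal left out transcripts was not tested. A median of 71.8% of the members' signal lay in the leading transcript, against 67.4% for the others. The leading transcript was the same in Top3b-eGFP and in Y332F for 88 of 100 members and 89.9% of the others. CG34310 had 86.8% of its signal in 1 transcript in Top3b-eGFP and 89.0% in Y332F. Members lay on X (26), 2R (22), 3L (18), 2L (17) and 3R (17), with none on 4, and 99 were annotated as protein coding.

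Between mutants, total RNA of the members could be compared by contrasts that leave out the samples behind the choice. The wild-type samples still entered the filter, the scaling and the shared estimate of spread. For the single genes named, calls lost with the compared groups fitted alone are given below. All 100 passed the filter on low counts, and tests were made with edgeR over 10238 features, called at an adjusted p under 0.05. Between Y332F and Top3b26, 10 members were called, against 7.27% of all features, with 4 higher (3.15% of all features) and 6 lower (4.11%) in Y332F. Between delRGG and Top3b26, 20 were called against 28.3%, with 6 higher (17.3%) and 14 lower (10.9%) in delRGG. Between delRGG and Y332F, 4 were called against 2.46%, with 3 higher (1.29%) and 1 lower (1.17%) in delRGG. The members' shares lay above the share over all features with Y332F against Top3b26 and delRGG against Y332F, and under it with delRGG against Top3b26, where fewer members were called higher than lower while more features were called higher than lower. These differences in share were not tested. The members' median log2 changes were 0.01, 0.01 and -0.09, against 0.03 over all features in each. These comparisons share samples pairwise. The late embryo and neuronal markers given above also differed between the mutants, and their part in these changes was not tested.

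Several members stood highest in Top3b26. Swip-1, an EF-hand protein that binds actin, was at 40.9, 34.3 and 32.5 CPM in Top3b26, 8.78, 10.7 and 10.6 in Y332F and 12.1, 11.7 and 10.6 in delRGG. The Top3b26 samples lay above all others without overlap, including wild type at 16.1, 14.95 and 19.7. It was lower in Y332F by a log2 change of -1.84 (SE 0.16, edgeR adjusted p = 3.54e-05) and in delRGG by -1.65 (SE 0.16, adjusted p = 7.44e-05). Jabba was at 570, 575 and 547 CPM in Top3b26, 348, 357 and 283 in Y332F and 269, 250 and 274 in delRGG, again without overlap, with wild type at 344, 352 and 296. Its log2 changes were -0.78 (SE 0.10, edgeR adjusted p = 0.000508) and -1.09 (SE 0.10, adjusted p = 4.09e-05).

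hng3 was at 12.5, 11.4 and 9.92 CPM in Top3b26, against 4.84, 4.75 and 5.06 in Y332F and 4.07, 5.97 and 4.92 in delRGG. sky was at 13.5, 14.4 and 11.4 CPM, against 6.13, 5.72 and 6.62 and then 6.93, 4.71 and 5.12. In both genes Top3b26 stood above the other mutants and wild type in every sample, the latter at 1.22, 2.08 and 1.56 CPM for hng3 and 7.76, 8.07 and 11.2 CPM for sky. hng3 changed by -1.21 (SE 0.26, edgeR adjusted p = 0.0140) in Y332F and -1.18 (SE 0.26, adjusted p = 0.0104) in delRGG, and sky by -1.09 (SE 0.23, adjusted p = 0.0133) and -1.23 (SE 0.23, adjusted p = 0.00520). The Y332F call was lost for hng3 when any 1 of the 6 libraries was left out, with adjusted p up to 0.0955, and without a filter on low counts (0.0587), and for sky in 4 of the 6 such fits, without Top3b26 replicate 1 or 2 or Y332F replicate 1 or 2. sky is among the near-coextensive genes.

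AnxB10 was at 60.5, 66.6 and 57.4 CPM in Top3b26, 54.5, 50.95 and 35.1 in Y332F and 23.0, 27.9 and 22.1 in delRGG. The delRGG samples lay under all others of the mutants and overlapped wild type, which had 26.5, 28.8 and 24.96 CPM. Its log2 change in delRGG was -1.34 against Top3b26 (SE 0.16, edgeR adjusted p = 0.000338) and -0.94 against Y332F (SE 0.16, adjusted p = 0.00883), and the second call was lost with the compared groups fitted alone (adjusted p = 0.0721). hwt was at 30.6, 30.5 and 18.7 CPM in delRGG, 5.50, 5.12 and 4.54 in Top3b26 and 2.69, 2.31 and 2.25 in Y332F. Its delRGG samples stood above the other mutants and above wild type, which had 8.44, 10.3 and 17.8 CPM. The log2 changes of hwt were 2.40 (SE 0.30, edgeR adjusted p = 0.000431) and 3.46 (SE 0.31, adjusted p = 0.000165).

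CG14131 was at 4.27, 2.14 and 2.64 CPM in delRGG, 1.42, 1.00 and 1.42 in Top3b26 and 0.72, 0.57 and 0.74 in Y332F, so the mutants were apart but all low, and wild type had 3.21, 4.12 and 6.85. It rose in delRGG by 1.24 (SE 0.39, edgeR adjusted p = 0.0369) and 2.16 (SE 0.40, adjusted p = 0.0159). Polr2I, a subunit of RNA polymerase II, was at 18.5, 26.8 and 21.3 CPM in delRGG, 12.2, 13.5 and 12.9 in Top3b26 and 11.6, 13.8 and 12.2 in Y332F, with wild type at 14.7, 15.7 and 15.3. It rose by 0.78 (SE 0.16, edgeR adjusted p = 0.00801) and 0.82 (SE 0.16, adjusted p = 0.0200). Against Top3b26, the CG14131 call was lost without delRGG replicate 1 or any Top3b26 replicate (adjusted p up to 0.153). Against Y332F, it was lost without delRGG replicate 1 or Y332F replicate 1 or 2 (up to 0.0907), and that of Polr2I without delRGG replicate 2 or any Y332F replicate (up to 0.109). Without a filter on low counts, or with the compared groups fitted alone, CG14131 against Top3b26 (edgeR adjusted p = 0.0594 and 0.0791) and Polr2I against Y332F (0.0557 and 0.140) lost their calls too, and CG14131 against Y332F did so with the groups alone (0.0747).

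Other members were higher in Y332F, or in Y332F and delRGG, than in Top3b26. slmo was at 2.35, 2.61 and 1.66 CPM in Top3b26, 5.07, 4.42 and 6.13 in Y332F and 2.52, 2.07 and 3.74 in delRGG, and Y332F stood above both other mutants. Its log2 change in Y332F against Top3b26 was 1.24 (SE 0.31, edgeR adjusted p = 0.0345). CG5532 was at 6.21, 5.88 and 5.91 CPM in Top3b26, 9.24, 9.49 and 12.1 in Y332F and 8.14, 9.22 and 10.2 in delRGG. It rose by 0.78 (SE 0.20, edgeR adjusted p = 0.0387) in Y332F and 0.62 (SE 0.20, adjusted p = 0.0418) in delRGG. Mic26-27, of the mitochondrial contact site complex, was at 45.5, 40.5 and 37.1 CPM in Top3b26 and 62.9, 61.2 and 61.0 in Y332F, a rise of 0.59 (SE 0.10, edgeR adjusted p = 0.00489). mRpL16 was at 15.02, 14.3 and 13.002 CPM against 20.02, 21.5 and 19.5, a rise of 0.53 (SE 0.13, edgeR adjusted p = 0.0372). The calls of slmo, CG5532 and mRpL16 were lost when any 1 of the 6 libraries was left out, with adjusted p up to 0.156, 0.179 and 0.180 over these fits and those without a filter on low counts, under which they were lost as well. The CG5532 call in delRGG was lost under the same fits, with adjusted p up to 0.133, and with the compared groups fitted alone (0.0806). That of Mic26-27 in Y332F was kept under every alternative run.

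**Figure D5:**
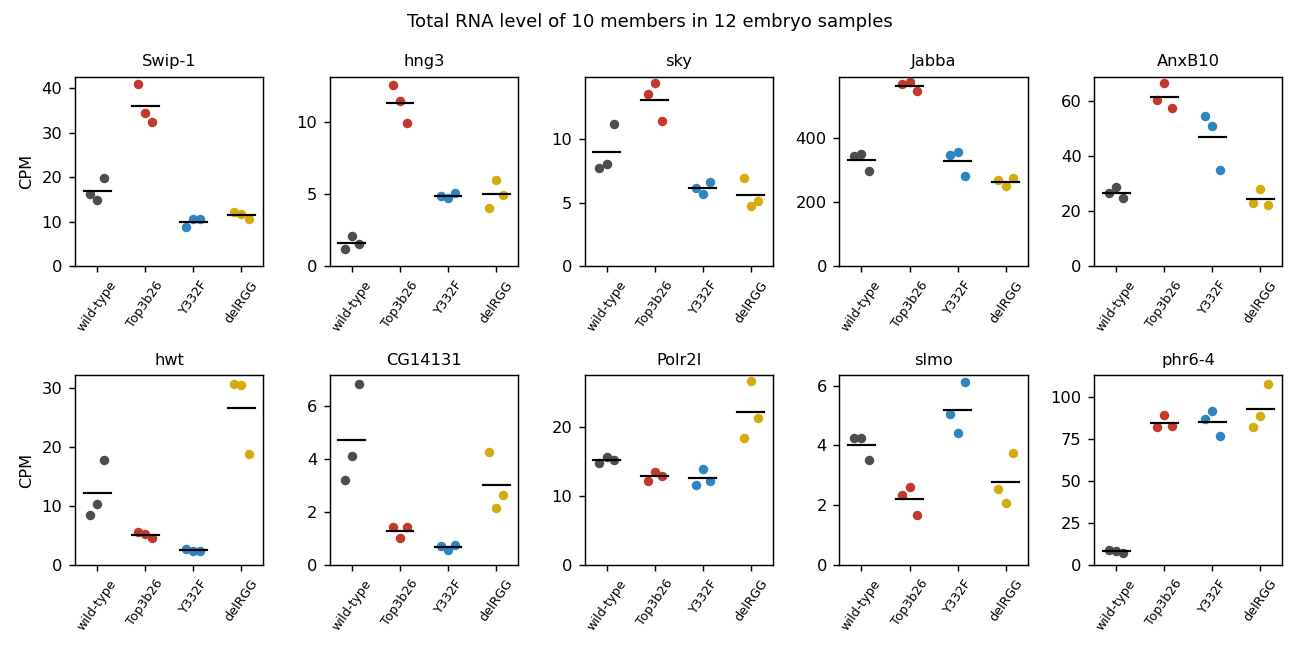
Total RNA level in CPM of 10 members in 12 embryo samples (points, 3 per genotype; lines are means), each panel with its own linear axis from 0. Swip-1, hng3, sky and Jabba stand highest in Top3b26, hwt in delRGG, and phr6-4 is low in wild type alone.

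Contrasts with the samples behind the choice are given as description. Against wild type, 33 members were called in Top3b26 (57.1% of all features), 30 in Y332F (43.5%) and 14 in delRGG (5.87%). A low wild-type level helped a gene onto the list, so nothing is read from these counts. Between Y332F and Top3b-eGFP RIP, limma called 25 members against 29.8% of all genes, 11 higher and 14 lower in Y332F. With RIP values as deposited, unscaled, 1 member was called. The shares of all genes by direction, or with unscaled values, are not given, so nothing is read from these RIP counts. Among the named genes, rg had RIP signals of 212, 440 and 618 in Top3b-eGFP and 103, 110 and 156 in Y332F, without overlap. eIF5 went the other way, at 1256, 1372 and 1437 in Y332F, above every Top3b-eGFP sample.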

How the data were processed

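Total RNA and RIP of Drosophila embryos were sequenced after Trizol extraction with a Lexogen CORALL total RNA kit on an Illumina NovaSeq instrument, per the labels' protocols. The submitters' processing notes name bcl2fastq, HISAT2, featureCounts and DESeq2; versions, counting settings and genome build are not given in the sources used here, so no coordinates are printed. For total RNA the authors deposited a table of raw whole-number counts, and a normalized RIP signal per transcript whose normalization is not stated. Reads behind the RIP signal are unknown. A further 3 RIP value columns belonged to no sample and were not used. One RIP column of each group was matched through a bare number in its label.

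RIP transcripts were summed per gene and samples scaled by median ratio, and CPM used TMM-scaled library sizes, with a pseudocount of 1 on both log2 scales. Of 2168 genes in both tables, 27 had a mean wild-type count under 10, and with Top3beta aside 2140 were ranked. The test of counts was that of edgeR 4.0.16, run in R 4.3.3 (filterByExpr minimum count 10, quasi-likelihood, all 12 samples, genotype only), and the RIP signal with limma 3.58.1 on log2(signal + 1), which understates changes of low genes. Benjamini-Hochberg adjustment covered all features tested. The SE of a log2 change is its size over the square root of F. DESeq2 1.42.0 was an alternative. Both tests were tried on simulated data. For Y332F against Top3b26, edgeR recovered 66.5% of 200 features given a log2 change of 2, with 5 false calls among 138. For Y332F against Top3b-eGFP RIP, limma recovered 97% of 200 genes given a log2 change of 1.5, with 8 false calls among 202.

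Symbols came from a FlyBase table, which held all 100 members. Spans, introns included, and overlaps came from the RefSeq annotation of assembly Release 6 plus ISO1 MT, where 2131 of the ranked genes had a span. The members and lists were chosen with earlier results of these data known. Named genes were the 15 highest, ranks 96 to 105, up to 4 rises and 4 falls called per mutant pair, the 5 highest and 5 lowest in the held-out value, members of the lists, the 3 most and 3 least variable members, and Top3beta.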

Additional observations from a re-analysis of the deposited data

Results flagged for a closer look

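Of 49 named genes, 5 had a Top3b-eGFP RIP sample far from the others, with a gap to the nearest of them of 0.632 to 0.766 of the range of the 6 samples. Chance marks about 1 in 20 groups. CG2006 was at 192.6 in replicate 4, with the others at 113 to 139. CG5532 was at 261.3 in replicate 6, with the others at 65.0 to 136. UQCR-6.4 was at 1474.3 in replicate 6, with the others at 282 to 562. Polr2I was at 410.5 in replicate 1, with the others at 308 to 338. eIF5 was at 533.0 in replicate 5, under the others at 839 to 1017.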

How the results depend on the processing

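Other scalings, pseudocounts, minimums, transcript summaries or abundances kept 73 to 100 of the members, and leaving out a sample 96 to 99. The held-out count of 70 stayed between 59 and 71, and at 69 to 70 with a sample left out. Top3b26 or delRGG abundance and the counts over mostly uncovered members were chosen after seeing the data. Counts of members called moved more. In this section they are given without the share over all features under the same setting. They therefore do not show whether the differences in share given above remain. For Y332F against Top3b26 (10), DESeq2 called 16, no filter 4, a 2-fold minimum 4, and leaving out a library 3 to 6. For delRGG against Top3b26 (20), no filter gave 13, a 2-fold minimum 7, and leaving out a library 12 to 24. For delRGG against Y332F (4), DESeq2 gave 11, the compared groups alone 1, a 2-fold minimum 2, and leaving out a library 2 to 8. Against wild type, a 2-fold minimum left 13 in Top3b26 (33), 11 in Y332F (30) and 7 in delRGG (14). In delRGG, DESeq2 gave 24 and the compared groups alone 2. Leaving out a library gave 27 to 31, 20 to 30 and 8 to 13. For RIP (25), values as deposited gave 1 and leaving out a sample 10 to 28, the lowest without Top3b-Y332F-eGFP replicate 3. The cause was not tested. Of 20 single-gene calls between mutants, 10 held under every alternative and none reversed.

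Whether equal replicate numbers pair the samples is not known from the labels. Deviations of equal numbers correlated at -0.26 to 0.62 between mutants, a mixed range, and at -0.11 to 0.02 in RIP. Wild type was not part of that check. With a replicate block, 11, 20 and 5 members were called between mutants in the order above, 34, 33 and 14 against wild type, and 6 in RIP, over samples 1 to 3 of both groups. The slmo call in Y332F against Top3b26 did not pass under the block (edgeR adjusted p = 0.0609). The RIP signal has no read depth, and members of few CPM have wide count error.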
